A study of Homo sapiens with 2 samples.

Results

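The genes described here were 34 DNA repair genes of homologous recombination and the Fanconi pathway. They were chosen by name, and each was found by symbol in the RefSeq gene table of GRCh38.p14, where they made up 34 of the 20050 protein-coding genes placed on chromosomes. The question was how many of them had a CUT & Tag peak at or near 1 of their ends. CUT & Tag locates a protein on DNA through an antibody that brings a cutting and tagging enzyme to it. The cells were TFK-1, an established human line of extrahepatic cholangiocarcinoma (ECCA), selected with puromycin after lentiviral transduction. LV-HOXA5 cells overexpressed Flag-tagged HOXA5, a homeobox transcription factor, and LV-HOXA5-NC cells carried the negative control vector. An anti-Flag antibody was used in both. Each group had 1 library made from 1000000 cells, so no value has a replicate check and no test between the groups was possible. The LV-HOXA5 library held 15778555 fragments and 8043 peaks. The LV-HOXA5-NC library held 1948734 fragments, 12.4% of that depth, and 635 peaks.

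Homologous recombination repairs a broken chromosome by copying the intact sister. The broken ends are first cut back to single strands, BRCA1, PALB2 and BRCA2 then act on these strands, and the strand exchange proteins pair them with the sister. Fanconi proteins recognise cross-links between the DNA strands and hand the damage over to the same machinery. Loss of many of these proteins, such as BRCA2 or the Fanconi core complex, makes cells sensitive to platinum drugs, agents used against bile duct cancer.

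In LV-HOXA5 cells, 12 of the 34 genes (35.3%) had a peak no farther than 1 kb from an end: BRCA1, BARD1, PALB2, RAD54L, XRCC2, NBN, EXO1, ATM, CHEK2, FANCB, FANCC and FANCF. The exact 95% binomial interval (Clopper-Pearson) was 19.7 to 53.5%. Among the other protein-coding genes, 2600 of 20016 (13.0%) had such a peak. With peaks up to 3 kb away or inside the gene, FANCM, RAD51B and RAD52 joined and the count was 15 of 34 (44.1%, 27.2 to 62.1%), beside 4141 of 20016 others (20.7%). With only peaks not below the list's median fold enrichment, the shares within 1 kb were 26.5% (34 genes) and 6.91% (others). Within 3 kb or inside they were then 32.4% and 11.2%. With only peaks at a q-value of 0.001 or less, the difference was smaller. The shares were then 26.5% and 11.3% within 1 kb, and 32.4% and 17.9% within 3 kb or inside. Intervals cover counting error only. As the genes had been chosen with earlier results known, the difference from the other genes was not tested.

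The LV-HOXA5-NC library had a peak near none of them. Its counts were 0 of 34 within 1 kb and 0 of 34 within 3 kb or inside, which allows a share of up to 8.82% when 3 counts are taken as the floor, or 10.3% as the upper end of the exact interval. The other protein-coding genes had 27 (0.135%) and 143 (0.714%). The closest LV-HOXA5-NC peak to any of the 34 genes lay 75.4 kb away, at BRCA1. With the difference in total fragments applied to them, the 12 pileups (fragments over the summit of a peak) would come to 1.36 to 2.47 fragments in LV-HOXA5-NC before counting scatter, whereas the lowest pileup in the LV-HOXA5-NC list was 4. At these 12 peaks, a lack of signal in LV-HOXA5-NC cells and a lack of depth therefore cannot be told apart. Of all peaks listed for the 34 genes, the tallest, with 33 fragments inside RAD51B, would come to 4.08 fragments, just above that lowest pileup.

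**Figure D1:**
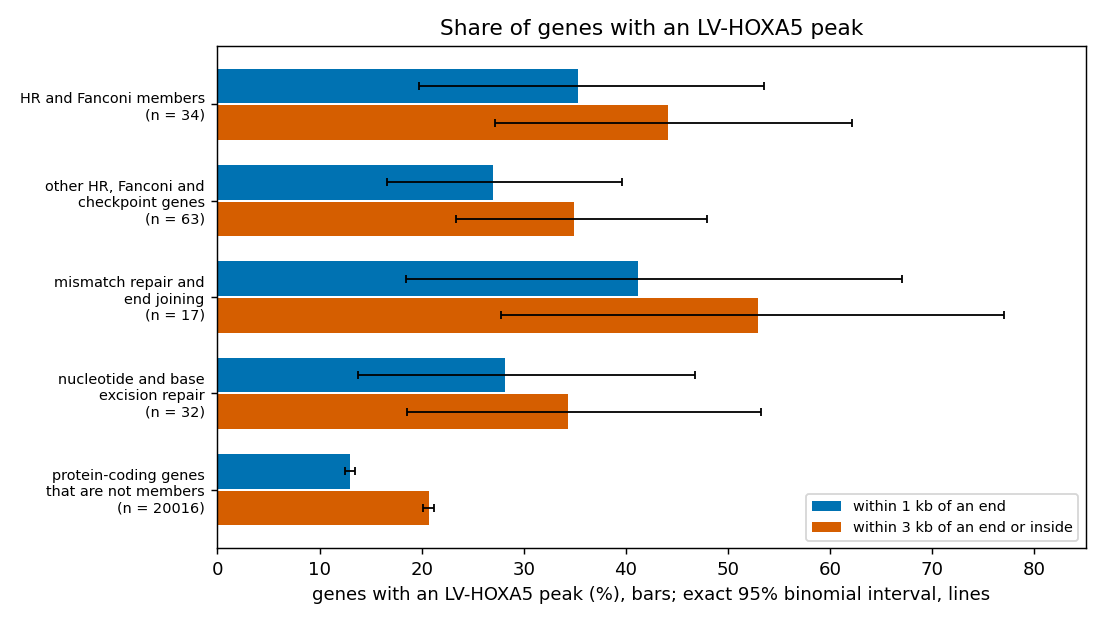
Share of genes with an LV-HOXA5 peak (%, horizontal axis) for the 34 homologous recombination (HR) and Fanconi genes, 3 lists of other repair genes and the protein-coding genes that are not members. Blue bars count peaks within 1 kb of a gene end, orange bars peaks within 3 kb or inside, and lines are exact 95% binomial intervals; the 34 genes stood at 35.3% and 44.1% and the other protein-coding genes at 13.0% and 20.7%.

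Among the BRCA proteins and their partners, 3 of 5 genes had a peak within 1 kb. BARD1 encodes the partner with which BRCA1 forms a ubiquitin ligase. Its peak at chr2:214809776-214810187 ended 93 bp upstream of the gene, and 19 fragments covered its summit. Its fold enrichment, the pileup over the local background of the library with 1 added to each, was 6.06. A non-coding gene, SNHG31, had an end 42 bp from the same peak, so that it cannot be told which of the pair the peak belongs to. PALB2 encodes the protein that joins BRCA1 to BRCA2. Its peak at chr16:23641316-23641690 had 16 fragments at the summit with a fold enrichment of 6.45. It stopped 6 bp before the start of PALB2 and covered that of DCTN5, a dynactin subunit gene read in the opposite direction. The stretch of this peak between both genes is shown because it belongs to either promoter: chr16:23641316-23641465 of GRCh38.p14, minus strand, from RefSeq. Capitals mark TAAT, the core of homeodomain sites, overlapping CCAAT on the other strand (ATTGG), the letters bound by NF-Y.
PALB2: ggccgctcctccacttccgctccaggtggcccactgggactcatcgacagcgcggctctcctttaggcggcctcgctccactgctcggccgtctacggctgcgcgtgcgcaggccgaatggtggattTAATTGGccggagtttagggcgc

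For BRCA1 it was uncertain which gene the peak belongs to. Its peak at chr17:43169888-43170311 had 16 fragments at the summit, but its fold enrichment of 3.43 was the lowest of the 12, since the local background was 3.96 fragments, the highest of the 12. BRCA1 has 2 annotated starts, and the peak lay 16 bp from the upstream one. The downstream start, at position 43125364, was 44.5 kb from the nearest peak. The peak also overlapped BRCA1P1, a partial copy of BRCA1, and lay 98 bp from NBR1, a gene of selective autophagy read in the opposite direction, and 92 and 653 bp from the non-coding genes LOC101929767 and LOC124900391. How fragments that match BRCA1 and its copy alike were placed is not given in the sources used here, so the peak cannot be given to 1 of these genes. BRCA2, the partner of PALB2 in strand exchange, and BRIP1, a helicase bound by BRCA1, had no peak within 3 kb or inside. The closest peaks to them were 880 kb and 104 kb away.

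Of the strand exchange genes, RAD54L and XRCC2 (2 of 7) had a peak within 1 kb, and both peaks covered the start of the gene. RAD54L, a DNA motor protein of strand exchange, had the lowest pileup of the 12 peaks, 11 fragments at chr1:46247610-46247995, with a fold enrichment of 4.20. XRCC2, a strand exchange cofactor, had 12 fragments at chr7:152675921-152676313 and a fold enrichment of 3.81. Neither shared its peak with another gene within 1 kb. The upstream stretch under the RAD54L peak is shown because it holds GGCGGGAA, letters like those of E2F sites, which 9 of the 30 genes with a promoter entry held. It is chr1:46247610-46247687 of GRCh38.p14, plus strand, and capitals mark CCAAT and GGCGGGAA, both read on the opposite strand.
RAD54L: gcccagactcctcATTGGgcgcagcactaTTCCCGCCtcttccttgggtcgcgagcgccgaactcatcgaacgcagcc

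RAD52 and RAD51B had peaks inside the gene, more than 3 kb from either end. RAD52, which anneals single strands, had a peak of 12 fragments and a fold enrichment of 3.59 at chr12:949727-950030. This peak was 38.0 kb from the nearer end of the gene but 33 bp from an internal annotated start of RAD52, so a rule on starts would count it. RAD51B, another strand exchange cofactor, is 863 kb long and held 6 peaks, with pileups of 10 to 33 fragments and fold enrichments of 4.15 to 9.08. The last value, at chr14:68191692-68192163 and 372 kb from the left end, was the highest of the 21 peaks listed for all 34 genes. It was higher than that of 98.9% of the peaks at other gene ends. That rank is only a description, as the highest of several peaks, deep inside a gene, was set against single peaks near gene ends. Per 100 kb RAD51B had 0.695 peaks, and 9 of the 314 other protein-coding genes of 500 kb or more (2.87%) had as many or more. Of these 314, 189 had no peak. As RAD51B held the most peaks of the 34 genes, this rank too is only a description. The nearest peak to its annotated starts was 84.3 kb away, so no peak was at its promoter. RAD51C, RAD51D and XRCC3, of the same group of cofactors, had no peak within 3 kb or inside, and the closest were 12.9, 6.91 and 500 kb away.

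**Figure D2:**
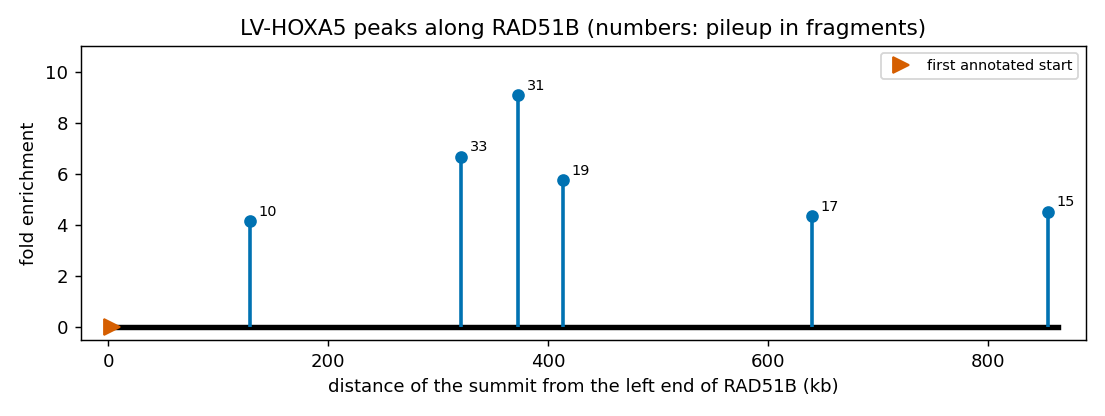
LV-HOXA5 peaks along RAD51B, with the distance of each summit from the left end of the gene (kb, horizontal axis) against fold enrichment (vertical axis) and the pileup in fragments beside each point. The 6 peaks lie between 129 kb and 854 kb, the strongest in fold (9.08) at 372 kb, and none is at the annotated start (orange).

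End resection cuts the broken ends back to single strands. NBN, the nibrin subunit of the MRE11-RAD50-NBN complex, had a peak of 17 fragments and a fold enrichment of 5.07 at chr8:89984041-89984662, inside the gene and 5 bp from an end. The other subunits had none within 3 kb or inside: the closest peak was 21.9 kb from RAD50 and 234 kb from MRE11. Peaks were thus found at 1 of the 3 genes of this complex.

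EXO1, an exonuclease of long resection, had a peak of 15 fragments at chr1:241847878-241848227 with a fold enrichment of 5.70, and it covered the left end of the gene. DNA2, a nuclease of the same step, and RBBP8, which encodes CtIP, the cofactor that starts resection, had none, with the closest peaks 82.1 and 88.8 kb away. In all, 2 of 6 resection genes had a peak within 1 kb.

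ATM and CHEK2, 2 of the 4 checkpoint kinase genes, had a peak within 1 kb. ATM, the kinase activated by double-strand breaks, had a peak at chr11:108222819-108223255 that covered its start, with 14 fragments at the summit (7.65 to 23.5 by the exact 95% Poisson interval) and a fold enrichment of 5.51. NPAT, a coactivator of histone genes read in the opposite direction, lay 181 bp away. CHEK2, the kinase that ATM activates, had a peak of 18 fragments and a fold enrichment of 5.67 at chr22:28741886-28742471, 52 bp from the gene and over the start of HSCB, a cochaperone of iron-sulfur cluster assembly. Another peak of 17 fragments and a fold enrichment of 6.61 lay inside CHEK2, 24.5 kb from an end. ATR and CHEK1, the pair of kinases for stalled replication, had no peak within 3 kb or inside, with the closest 372 and 32.2 kb away. With 2 genes for breaks and 2 for stalled replication, this split is a description of 4 genes and was not tested. The share of 2 of 4 had an exact 95% binomial interval of 6.76 to 93.2%, beside 13.0% of the other protein-coding genes. The shared promoters of the ATM and CHEK2 loci are shown as far as they were under the peak and outside every gene: chr11:108222819-108223066 on the plus strand and chr22:28741886-28742031 on the minus strand of GRCh38.p14. Capitals mark CCAAT (as ATTGG), TAAT and, in ATM, CCGGAAG, the letters of ETS sites.
ATM: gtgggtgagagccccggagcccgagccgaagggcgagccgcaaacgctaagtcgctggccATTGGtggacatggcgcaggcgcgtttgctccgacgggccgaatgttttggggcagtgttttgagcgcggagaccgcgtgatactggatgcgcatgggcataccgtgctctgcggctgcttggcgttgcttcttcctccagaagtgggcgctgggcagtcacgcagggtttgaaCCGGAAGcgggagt
CHEK2: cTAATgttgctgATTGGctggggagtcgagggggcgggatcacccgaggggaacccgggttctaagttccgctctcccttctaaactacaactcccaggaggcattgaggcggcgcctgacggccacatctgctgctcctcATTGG

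The RecQ helicase genes BLM and WRN, whose proteins unwind recombination intermediates, had no peak within 3 kb or inside (0 of 2). Their closest peaks were 137 and 229 kb away.

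Of the 10 Fanconi genes, FANCB, FANCC and FANCF had a peak within 1 kb. All 3 encode subunits of the core complex that ubiquitinates FANCD2 and FANCI. So do FANCA, FANCE, FANCG and FANCL, which had no peak within 3 kb or inside. FANCB had a peak of 15 fragments and a fold enrichment of 6.56 at chrX:14873136-14873622, 67 bp upstream, and this peak covered the start of MOSPD2, a membrane protein gene. FANCC had the highest pileup of the 12, 20 fragments (12.2 to 30.9), and the highest fold enrichment, 6.61, at chr9:95317016-95317348. The FANCC peak was 361 bp from the end of the gene, the farthest of the 12, and covered an annotated start inside it. FANCF had a peak of 13 fragments and a fold enrichment of 5.46 at chr11:22625579-22625904 over its start, with GAS2 98 bp away. FANCM, the helicase that anchors the core complex on DNA, was just outside the limit: its peak of 20 fragments and a fold enrichment of 6.11 at chr14:45134351-45134880 was 1050 bp upstream and covered an end of FKBP3. The promoter stretches under the FANCF and FANCB peaks, chr11:22625824-22625904 and chrX:14873136-14873319, both on the minus strand of GRCh38.p14, are shown as a pair with and without a motif: FANCF has a CCAAT (in capitals) and FANCB none of the motifs searched. Of the 8 stretches that could be read under a peak and outside every gene, 5 held CCAAT, and the other 3 (FANCB, BARD1 and XRCC2) held no motif. Among whole promoter windows of 300 bases that overlapped a peak, 50.0% held CCAAT for the listed genes and 53.0% for other protein-coding genes. These windows are longer than the stretches, and no share for stretches of other genes was computed.
FANCF: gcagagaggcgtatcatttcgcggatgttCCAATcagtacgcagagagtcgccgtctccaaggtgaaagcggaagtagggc
FANCB: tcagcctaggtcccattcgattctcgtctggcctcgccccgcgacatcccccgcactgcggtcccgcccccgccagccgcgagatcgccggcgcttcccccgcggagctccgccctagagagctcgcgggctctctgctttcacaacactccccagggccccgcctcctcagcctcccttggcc

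The remaining Fanconi genes had no peak within 3 kb or inside. These were the core complex genes FANCA, FANCE, FANCG and FANCL and their substrates FANCD2 and FANCI. The closest peaks were 17.3 kb from FANCI, 36.0 kb from FANCG, 49.2 kb from FANCD2, 50.9 kb from FANCL, 57.4 kb from FANCA and 835 kb from FANCE. Over the 19 genes of all roles without a peak, the closest lay at a median of 82.1 kb.

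**Figure D3:**
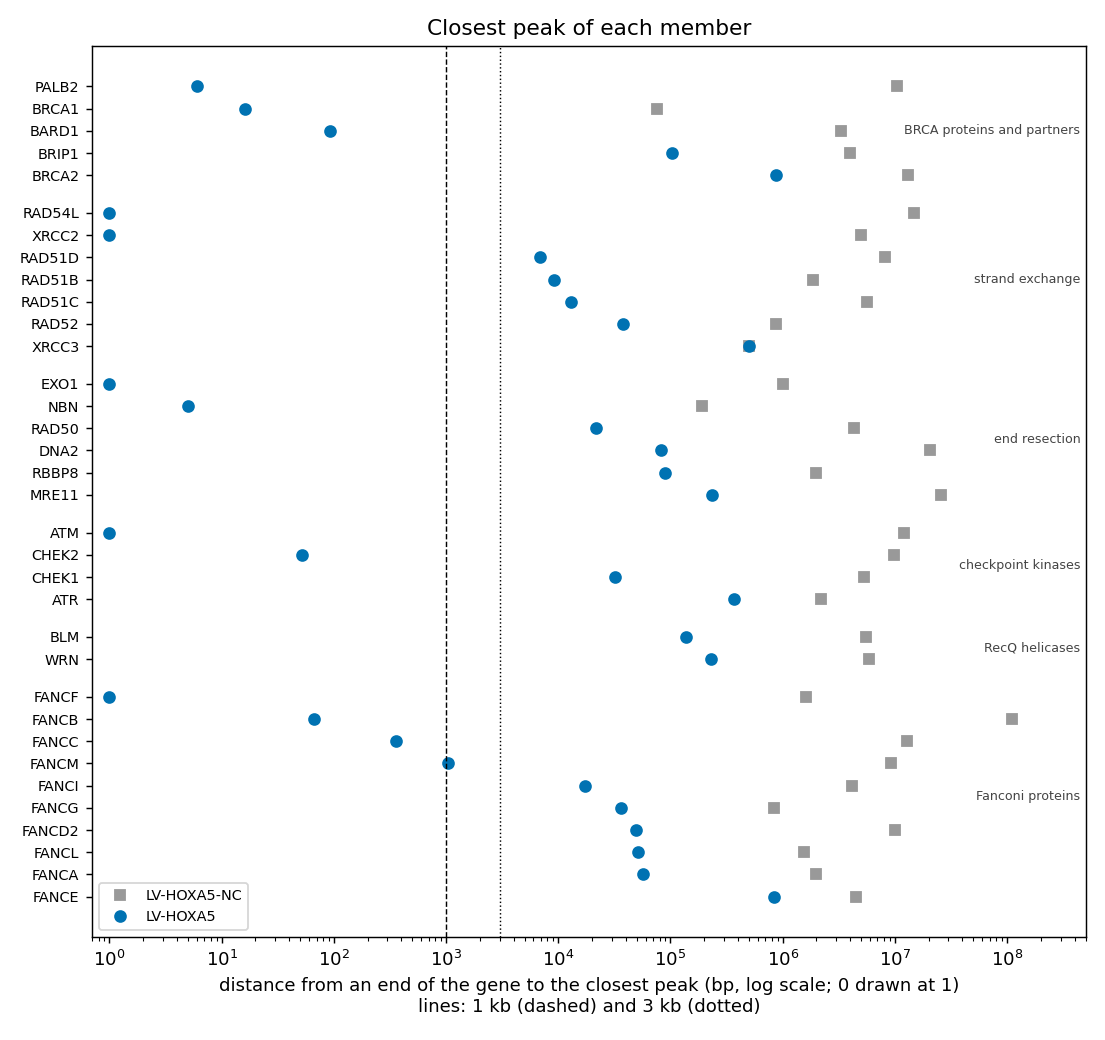
Distance from an end of each gene to the closest peak (bp, log scale, 0 drawn at 1) in the LV-HOXA5 (blue circles) and LV-HOXA5-NC (grey squares) libraries, with genes grouped by role. Dashed and dotted lines mark 1 kb and 3 kb: 12 blue circles lie left of 1 kb, FANCM at 1050 bp lies just to the right, and every grey square is at 75.4 kb or more.

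The 12 peaks were no taller than those at other genes. Their median pileup was 15.5 fragments (range 11 to 20). The median was 17 over the 2087 different peaks closest to the ends of other protein-coding genes and 17 over all 8043 peaks. Peaks that a member shares with another protein-coding gene are among the 2087 too. Their median fold enrichment was 5.59 (3.43 to 6.61), against 4.88 at other gene ends. The median local background was 2.02 fragments at the 12 peaks and 2.58 at the others, so the lower pileup stood on a lower background. The lowest pileup, at RAD54L, had a Poisson interval of 5.49 to 19.7 fragments and the highest, at FANCC, 12.2 to 30.9. These intervals overlap, and the order of the 12 genes by pileup is within counting error.

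**Figure D4:**
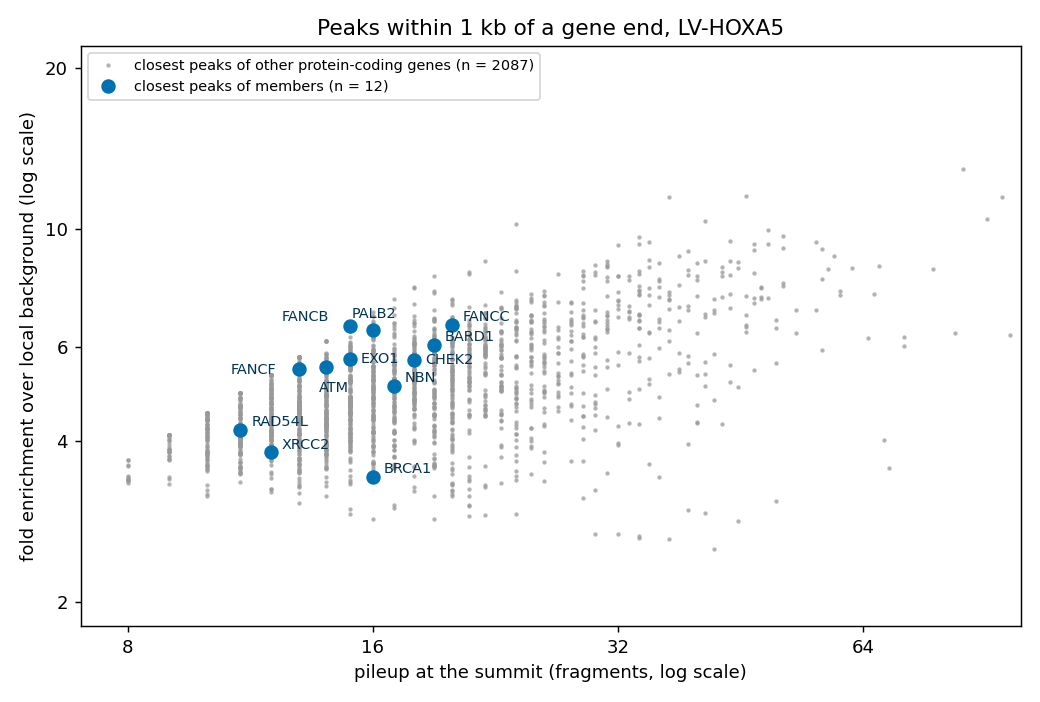
Pileup at the summit (fragments, log scale) against fold enrichment over the local background (log scale) for the LV-HOXA5 peak closest to each gene, within 1 kb of an end. Blue circles are the 12 homologous recombination and Fanconi genes. Grey points are the 2087 peaks of other protein-coding genes, of which 11 lie outside the axes. Peaks shared with a member are among the 2087. The blue circles span 11 to 20 fragments, within the bulk of the grey points.

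All 11 genes of the 12 that had an entry in the RefSeq promoter table had the peak at the end where transcription starts, and so did 2078 of 2195 other protein-coding genes (94.7%). The summit was upstream of the nearest annotated start in 6 of the 11 and downstream in 5, at a median distance of 162 bp (61 bp at PALB2 to 564 bp at CHEK2). For the other genes the median distance was 197 bp, and 68.8% of the summits were upstream. DNA2, NBN, WRN and FANCI had no entry.

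**Figure D5:**
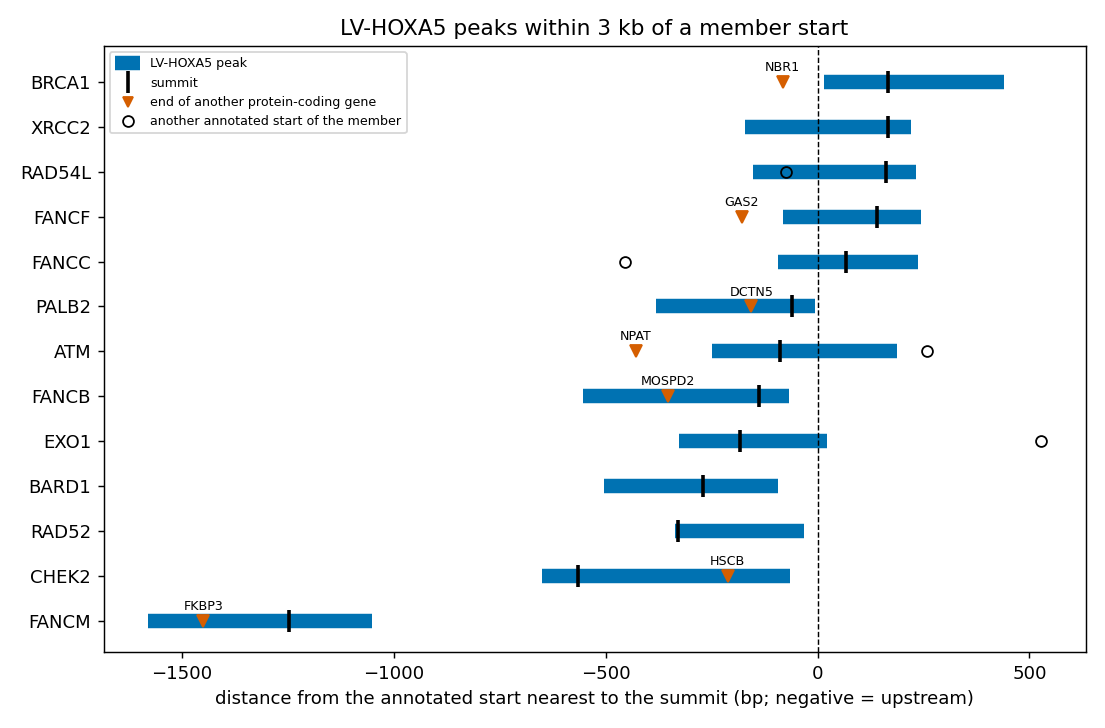
Position of LV-HOXA5 peaks (blue bars, summit as a black tick) relative to the annotated start nearest to the summit (bp, horizontal axis, negative values upstream) for the genes with a peak within 3 kb of a start. Orange triangles mark ends of other protein-coding genes near the same peak and open circles further annotated starts of the same gene; the peaks of PALB2, FANCB, CHEK2 and FANCM cover the end of a neighbour.

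For 6 of the 12 genes the same peak was also within 1 kb of an end of another protein-coding gene: BRCA1 with NBR1, PALB2 with DCTN5, ATM with NPAT, CHEK2 with HSCB, FANCB with MOSPD2 and FANCF with GAS2. The share was 50.0% (21.1 to 78.9%), with the 39.3% (1022 of 2600) of other protein-coding genes with a peak inside that interval. Either end of a neighbour was counted, and the promoter table lists no start of GAS2 within 1 kb of that of FANCF. Signal at such a peak cannot be divided between both genes.

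Promoters in which another gene started within 1 kb in the opposite direction were found at 9 of the 30 genes with an entry (30.0%) and at 2140 of 15813 others (13.5%). Among those 9, ATM, PALB2, BRCA1, CHEK2 and FANCB had a peak in that range and MRE11, BRCA2, XRCC3 and RAD51C had none. For the other protein-coding genes a peak was present at 28.7% of such paired promoters and at 11.6% of the rest. Among the 21 listed genes without a paired start, 6 had a peak (28.6%). How far paired promoters account for the higher share among the 34 genes was not tested.

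CpG content differed in the same way. A promoter window here is 250 bases before to 50 bases after a start, and 29 of the 30 genes had a window with 10 or more CpG, against 12135 of 15813 others (76.7%). RAD51B, with at most 2 CpG in a window, was the exception. Among genes with such a window, 11 of 29 (37.9%, 20.7 to 57.7%) and 2096 of 12135 others (17.3%) had a peak within 1 kb, and among other genes without one, 2.69% had. This class was chosen after seeing the data. The genes also differed in length, with a median of 77.3 kb against 24.1 kb for other protein-coding genes, which bears on counts of peaks inside a gene. The 12 genes with a peak within 1 kb had a median length of 52.7 kb and the 22 without 79.2 kb.

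Motifs were counted on both strands of these windows as a description of the letters. A GGCGGGAA was present in at least 1 window of 9 of the 30 genes (30.0%): BLM, BRIP1, FANCC, FANCD2, FANCL, RAD52, RAD54L, XRCC2 and XRCC3. It was present in 5.17% of the 15813 other genes, and in 3.98% of all 22199 protein-coding windows. By gene, 3 of 11 with a peak within 1 kb held it (27.3%) and 6 of 19 without (31.6%), RAD52 among the latter although its internal start had a peak. By window, 5 of 14 that overlapped a peak held it (35.7%) and 5 of 28 that did not (17.9%), and these counts differ in direction from those by gene. They also differ in the rule, as a window had to overlap a peak, and both overlapping windows of RAD54L were counted. Among other protein-coding genes the shares were 6.51% with a peak and 4.95% without.

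The homeodomain core TAAT was found in 6 of the 11 genes with a peak (BRCA1, CHEK2, EXO1, FANCF, PALB2 and XRCC2) and in 5 of the 19 without. By window, it was in 5 of 14 that overlapped a peak (35.7%) and 9 of 28 that did not (32.1%), and the TAAT of EXO1 was in a window without a peak. Among other protein-coding genes it was in 47.2% of those with a peak and 48.8% of those without, and 42.7% of all windows (a gene can have several) held it. The longer TGATTNAT, the letters of a joint HOX and PBX site, was found only at FANCM among the 30 genes and in 2.06% of all windows. CCAAT was present in 6 of 11 genes with a peak (ATM, BRCA1, CHEK2, FANCF, PALB2 and RAD54L) and 7 of 19 without, although in BRCA1 it was only in the window of the downstream start, which had no peak. The shares were 56.9% and 39.7% for the other genes, and 34.7% of all windows held it. CCGGAAG was present in 2 of 11 (ATM and PALB2) and 7 of 19, against 23.7% and 15.3% of the other genes, and in 12.8% of all windows. CACGTG, the E-box of MYC and MXD proteins, was in a window of FANCC, BRCA2 and RAD50, none of which overlapped a peak (0 of 14 windows with a peak and 3 of 28 without), and in 8.34% of all windows. No motif result was tested, and some windows of the same gene overlap.

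Other repair genes had shares in the same range. Of 63 further genes of recombination, the Fanconi pathway and checkpoints, 17 had an LV-HOXA5 peak within 1 kb (27.0%, 16.6 to 39.7%) and 22 within 3 kb or inside (34.9%). The highest fold enrichments were at SHLD3, a shieldin subunit gene (8.31, 21 fragments), USP1, the protease that removes ubiquitin from FANCD2 (7.20, 24 fragments), and RAD1, a subunit of the checkpoint clamp (6.65, 18 fragments). Of 17 genes of mismatch repair and end joining, 7 had a peak within 1 kb (41.2%, 18.4 to 67.1%), among them the end joining genes NHEJ1 and XRCC6 (fold enrichment of 5.69 and 18 fragments each). Excision repair had 9 of 32 (28.1%, 13.7 to 46.7%), led by PARP2, a sensor of strand breaks (8.45, 45 fragments), TDG, a thymine DNA glycosylase (5.93, 21 fragments), and APEX1, the abasic site nuclease (5.85, 27 fragments). Within 3 kb or inside, 9 of the 17 (52.9%) and 11 of the 32 (34.4%) had a peak, beside 44.1% of the 34 genes. All 3 lists had intervals that overlapped that of the 34 genes. Shares above the 13.0% of the other protein-coding genes were thus seen for other repair genes as well. In the LV-HOXA5-NC library, these lists together had 0 genes with a peak within 1 kb and 1 with a peak within 3 kb or inside, in mismatch repair and end joining.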

How the data were processed

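Anti-Flag CUT & Tag libraries of TFK-1 cells (LV-HOXA5 and its control) were used, grouped by the sample labels. Per the file headers, the authors removed duplicates and called peaks in each library on its own with MACS 2.2.7.1 (paired-end fragments, q-value of 0.05, no control library). The submitters' processing notes also name fastp, Bowtie2, deepTools, ChIPseeker and GRCh38. The deposited pileup is a signal of fragments at the summit, not scaled for depth. The deposited fold enrichment is a ratio of pileup to the local background of the same library, with 1 added to both. The deposited p-value and q-value of each peak are on the −log10 scale. The authors' integer scores were not used.

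Gene ends came from a RefSeq table without strand, exons or UTRs; 6 protein-coding genes without a chromosome were left out. Starts, strands and sequences came from RefSeq promoters of the same build, with entries for 30 of the 34 genes. Distances ran from the nearest edge of a peak (0 where it covered the end). The local background was recomputed as (pileup + 1) / fold − 1, and pileups were scaled by the ratio of total fragments. The members and gene lists were chosen with earlier results of these data known. All 34 genes could be named, with full values for those with a peak within 1 kb, and the 3 highest in fold enrichment from each other repair list, of which 1 is not reported here. Alternatives were stricter thresholds, other distances, summits in place of edges, starts only, peaks absent from the control list and, chosen after seeing the data, genes with CpG-rich promoters and the list without the BRCA1 peak. Python 3.11.15, NumPy 2.4.6, pandas 2.3.3, SciPy 1.17.1 and Matplotlib 3.10.9 were used, and the assignment of peaks was tested on simulated data.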

Additional observations from a re-analysis of the deposited data

How the results depend on the processing

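The shares, the medians and the count of shared peaks were recomputed under 9 alternatives, 7 planned and 2 chosen after seeing the data, which gave 79 values. Of these, 68 stayed within the 95% interval of the reported value (for the count of shared peaks, within 1.5 times it), including every value for the 34 genes. Their interval is wide (19.7 to 53.5% for the LV-HOXA5 share within 1 kb), so a fall from 12 to 9 genes still counted as within it. Leaving out peaks that overlap an LV-HOXA5-NC peak could not alter the LV-HOXA5 values of the 34 genes, as none of their peaks overlapped one. Among the 68 were 16 LV-HOXA5-NC shares of 0, which could not fall and say little about stability. For the 34 genes, the LV-HOXA5 share within 1 kb ranged from 26.5% to 40.0%. The lowest (9 of 34, without BRCA1, RAD54L and XRCC2) was seen at a q-value of 0.001 or less. It was also seen when only the peaks not below the list's median in fold enrichment were kept. The highest was with starts only (12 of 30, with RAD52 and without NBN, which had no entry). At 2 kb the share was 38.2%, as FANCM joined, and without the BRCA1 peak 32.4%. Within 3 kb or inside, in place of 44.1%, the share of the 34 genes was 32.4% (11 of 34) under each of the q-value and fold enrichment limits. It was 46.7% (14 of 30) with starts only. The other 11 values were shares of the other protein-coding genes, whose interval is narrow. Within 1 kb, in place of 13.0%, these were 11.3% at a q-value of 0.001 or less, 6.91% at the median fold enrichment, 14.1% with starts only, 11.9% at 500 bp, 14.1% at 2 kb and 17.3% among CpG-rich promoters. Within 3 kb or inside, in place of 20.7%, they were 17.9% at that q-value, 11.2% at the median fold enrichment, 19.9% at 1.5 kb, 21.9% at 5 kb and 25.8% among CpG-rich promoters.

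No paired analysis was possible because each group had 1 library. The LV-HOXA5-NC peaks came from 12.4% of the fragments of LV-HOXA5, which limits what that list can show. No IgG or input library entered the peak calling. Peaks do not show whether a gene's expression differs.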
